A study of Mus musculus with 18 samples.

Results

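Genes of the unfolded protein response and the integrated stress response were followed in adipocytes isolated from bone marrow and from epididymal fat of mice of 3 ages. The 36 genes were taken by name: 4 stress sensors, 3 transcription factors, 11 chaperones and cofactors of the endoplasmic reticulum (ER), 3 protein disulfide isomerases, 8 genes of ER-associated degradation, and 7 ATF4 targets and genes of the eIF2 feedback. Each is represented by a probe set that names it alone, and by the one with the highest mean over all 18 arrays where there are several. They are 36 of the 19938 genes that have such a probe set on the Affymetrix Mouse Gene 1.0 ST array, which measures each transcript with probes along its length.

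The mice were untreated C57BL/6J males on standard chow, aged 6, 14 or 18 months. Bone marrow adipocytes were floated out of marrow flushed from femurs and tibias after red cell lysis, and the epididymal adipocytes, which the labels call peripheral, were floated out of collagenase-digested fat. Each of the 6 groups of cell type and age had 3 arrays, and each array carried RNA pooled from several animals because marrow adipocytes gave little RNA (6 to 10 animals for the 3 pools of a group). The same animals gave marrow and fat. The floated cells were not sorted by surface markers, and the p values measure the spread between pools and not between single mice.

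Proteins that fold in the ER are watched by 3 kinds of sensor: PERK (gene Eif2ak3), IRE1 (Ern1) and the ATF6 factors. PERK phosphorylates the initiation factor eIF2, which slows translation but favours that of ATF4, and ATF4 turns on genes of amino acid supply and the factor CHOP (Ddit3). IRE1 splices the mRNA of Xbp1, and XBP1 and ATF6 raise ER chaperones and the machinery that exports misfolded proteins for degradation. Other eIF2 kinases reach ATF4 without ER stress, and secretory cells such as plasma cells run much of the XBP1 branch constitutively. Phosphorylation and splicing are not seen in these array values, which measure the RNA of each gene.

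Promoters of the group hold the elements these factors are known to bind, and 8 stretches are shown because the results turn on their genes. Of the 36 genes, 31 matched a RefSeq promoter window (mouse build GRCm38.p6, 250 bases before to 50 bases after a transcript start), and Atf6, Hyou1, Manf, Derl1 and Ppp1r15b did not. The windows were searched on both strands for the ER stress response element (CCAAT, 9 free bases, CCACG), its variant ERSE-II (ATTGG, 1 free base, CCACG) and the amino acid response element core (TGATGNAA, where N is any base). Both ER stress elements end in the letters CCACG and can overlap there, but no member's window held both. All stretches lie upstream of the transcript start, run 5′ to 3′ on the gene's strand, and have the matched element in capitals with 25 flanking bases on either side.
Hspa5, chr2:34772000-34772068, + strand, element from base -65 to -47: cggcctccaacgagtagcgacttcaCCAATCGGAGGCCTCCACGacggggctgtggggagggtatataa
Dnajc3, chr14:118937802-118937870, + strand, element from base -105 to -87: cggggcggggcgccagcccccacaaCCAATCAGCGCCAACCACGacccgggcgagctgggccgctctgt
Pdia6, chr12:17266466-17266534, + strand, element from base -98 to -80: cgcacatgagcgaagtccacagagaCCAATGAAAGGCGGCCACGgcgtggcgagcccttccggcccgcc
Creld2, chr15:88819495-88819563, + strand, element on the opposite strand from base -126 to -108: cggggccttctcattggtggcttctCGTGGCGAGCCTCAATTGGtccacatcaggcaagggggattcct
Derl3, chr10:75893217-75893285, + strand, element on the opposite strand from base -156 to -138: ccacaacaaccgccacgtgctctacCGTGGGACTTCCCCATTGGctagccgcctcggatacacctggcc
Herpud1, chr8:94386292-94386412, + strand, amino acid element on the opposite strand from base -112 to -105 and ERSE-II from base -52 to -42: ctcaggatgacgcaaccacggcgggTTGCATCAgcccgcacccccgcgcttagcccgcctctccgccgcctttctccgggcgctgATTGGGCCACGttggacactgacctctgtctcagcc
Slc7a11, chr3:50443628-50443704, - strand, amino acid elements from base -66 to -59 and, on the opposite strand, from base -47 to -40: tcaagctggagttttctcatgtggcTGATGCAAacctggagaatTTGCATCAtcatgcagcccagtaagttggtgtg
Chac1, chr2:119351024-119351081, + strand, amino acid element on the opposite strand from base -193 to -186: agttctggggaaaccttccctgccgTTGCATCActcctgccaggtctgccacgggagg
The Slc7a11 window belongs to a start that lies 55474 bases inside the gene's RefSeq record.

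The ER stress response element was found in the windows of 9 members (Hspa5, Calr, Derl3, Hsp90b1, Canx, Pdia6, Dnajc3, Creld2 and Syvn1) and in 0.119% of all 32851 windows of that length. Dnajb11 and Herpud1 held ERSE-II, which 0.0365% of all windows hold. The amino acid element, a shorter motif present in 3.97% of all windows, was in those of Chac1, Trib3, Slc7a11, Asns and Herpud1. Genes with the ER stress response element did not share a direction between the cell types, and neither did those with the amino acid element (Slc7a11 at 4.77 and Asns at -0.45). The ERSE-II genes Dnajb11 and Herpud1 were both higher in bone marrow, at 0.29 and 1.57. With ribosomal protein genes set equal they were at -0.46 and 0.82. Among those with the ER stress response element, Creld2 and Derl3 were higher in bone marrow, with log2 differences of 0.95 and 1.00 that fell to 0.20 and 0.25 and no longer passed with ribosomal protein genes set equal, while Dnajc3 and Pdia6 were lower by -0.97 and -0.58. A match is a description of the letters and not a measured binding site.

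By the study's methods the deposited values are log2 levels after gcRMA and quantile normalization, while the legend of its supplementary figure names RMA. Array medians still ran from 5.33 to 5.65. Each difference is that of bone marrow less epididymal adipocytes, or of the older less the younger age. Tests were limma's moderated tests in 1 model over all arrays, with Benjamini-Hochberg adjustment over the 23410 probe sets that name a gene, and a gene passed at an adjusted p under 0.05. In the plot of levels by array, the 9 bone marrow and the 9 epididymal arrays differ most plainly in the rows of Slc7a11, Ppp1r15a, Herpud1 and Sel1l. The 3 arrays of 6-month bone marrow were the least alike: the median SD of the members was 0.295 there, and 0.0759 to 0.122 in the other groups. Marker genes place the preparations apart as well. Over the ages, all 11 mature adipocyte markers were lower in bone marrow (median log2 difference -5.11), and all 11 neutrophil, all 7 erythroid and 10 of 11 macrophage markers were higher. At 14 months 3 macrophage markers were higher, 3 were lower and 5 did not pass. In the bone marrow groups the mean level was 6.65 to 7.10 for mature adipocyte, 11.78 to 12.27 for neutrophil and 10.61 to 11.49 for erythroid markers. The name bone marrow adipocytes is that of the labels. Replicate 1 of 6-month epididymal adipocytes stood apart in its marrow markers, with a mean neutrophil marker level of 8.99 against 5.62 and 5.37 on the other arrays of its group, and 7.73 against 6.21 and 6.33 for erythroid markers. It lies in the baseline of the epididymal age changes, so the main counts of members that passed are also given without it. Counts by the F test, of markers, of further pathway genes and of non-overlap are given with all arrays only. The mean neutrophil marker level was 6.52 to 7.09 on the 18-month epididymal arrays and 5.32 to 5.59 on the 14-month ones. In bulk RNA fewer cells of a type and less RNA per cell cannot be told apart, and the part of other cell types in the differences was not tested.

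**Figure D1:**
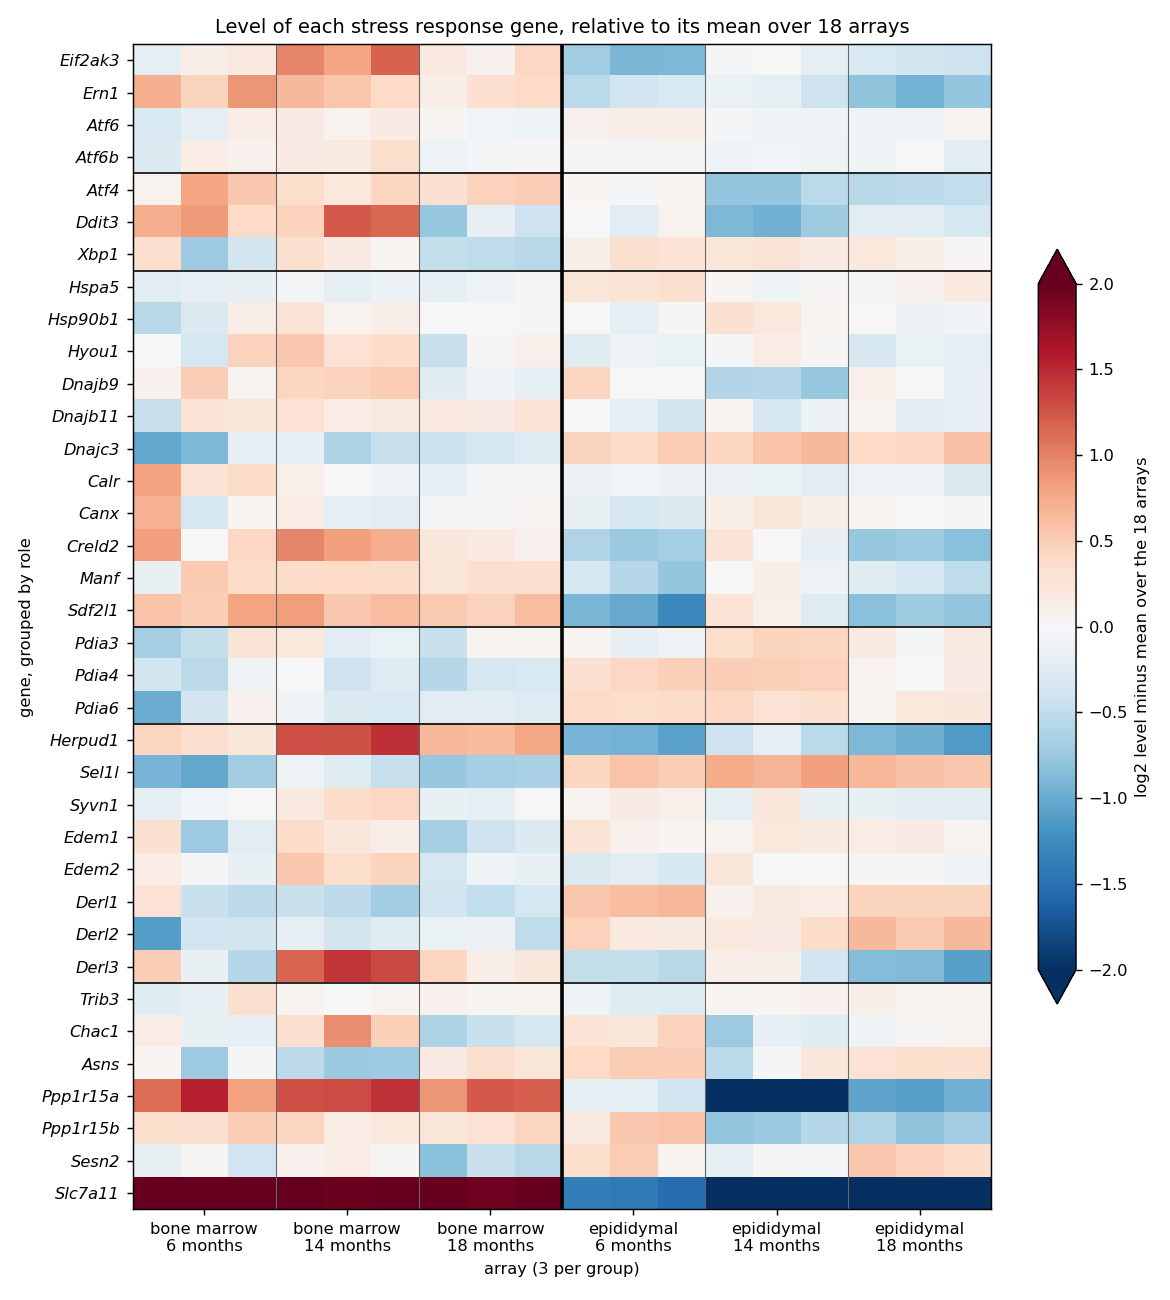
Level of the 36 genes (rows, grouped by role) on the 18 arrays (columns, bone marrow left of epididymal, ages from 6 to 18 months, 3 arrays each), as the log2 level minus the gene's mean over all arrays; color is capped at -2 and 2. Slc7a11 is above its mean on all 9 bone marrow arrays and below it on all 9 epididymal arrays, and Derl3, Herpud1 and Eif2ak3 stand highest on the 14-month bone marrow arrays.

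Between the cell types, taken over the 3 ages, 5 members were at least 2-fold higher in bone marrow and 1 was lower: the cystine transporter Slc7a11, the eIF2 phosphatase subunit Ppp1r15a, Herpud1, Sdf2l1 and Ern1 were higher, and Sel1l was lower. These 6 are 16.7% of the members, against 21.8% of all probe sets tested (10.2% higher and 11.6% lower) and 36.5% of the 13677 with a group mean of at least 6, a level that all 36 members reached. By the adjusted p alone 16 were higher, 12 lower and 8 did not pass (77.8% passed, against 58.1% of all probe sets, 26.9% higher and 31.2% lower, and 81.8% of those with a group mean of at least 6). The median difference of the members was 0.11, and that of all probe sets -0.02. All 9 bone marrow arrays lay above all 9 epididymal arrays for 6 members (Ern1, Atf4, Sdf2l1, Herpud1, Ppp1r15a and Slc7a11) and below them for 4 (Dnajc3, Pdia4, Sel1l and Derl2), where 27.6% of all probe sets showed no overlap. The 53 ribosomal protein genes had a median difference of 0.71, and a scaling that sets them equal on all arrays shifts the median of all probe sets by -0.75. Under it 2 members were at least 2-fold higher (Slc7a11 and Ppp1r15a) and 12 lower. Herpud1, Sdf2l1 and Ern1 stayed higher by adjusted p but under 2-fold, Eif2ak3, Atf4, Ddit3, Creld2 and Derl3 no longer passed, and Dnajb9, Dnajb11, Calr, Manf, Edem2 and Ppp1r15b turned negative, whereas each of the 12 members that were lower by adjusted p stayed lower. Without replicate 1 of 6-month epididymal adipocytes 5 were higher and 1 lower at 2-fold.

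**Figure D2:**
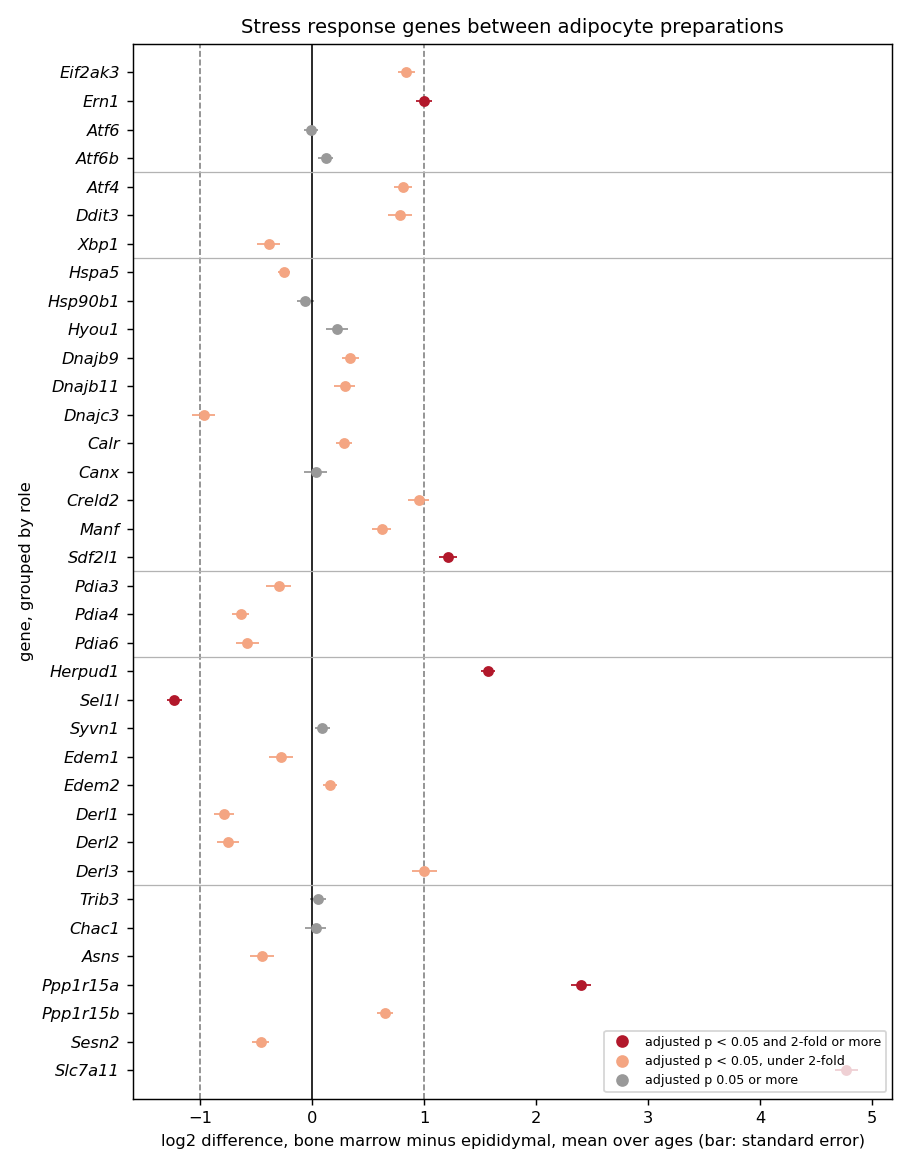
Log2 difference between bone marrow and epididymal adipocytes over the 3 ages for each of the 36 genes (points; bars are the standard error of limma's fit; dashed lines mark a fold of 2). Slc7a11 stands far to the right at 4.77, Ppp1r15a follows at 2.40, and Sel1l is the only gene past the dashed line on the left, at -1.23.

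Of the sensors, Eif2ak3 and Ern1 were higher in bone marrow and the ATF6 genes did not pass. On the bone marrow arrays Ern1, the kinase and endonuclease IRE1, measured 8.06, 7.78 and 8.22 at 6 months, 7.98, 7.90 and 7.74 at 14 months and 7.47, 7.68 and 7.73 at 18 months. On the epididymal arrays it measured 6.80, 6.95 and 7.03, then 7.20, 7.14 and 6.92, then 6.53, 6.40 and 6.56 at the same ages. Every bone marrow array was above every epididymal array, with a log2 difference of 1.00 (SE 0.0739, adjusted p = 3.78e-10). At 1.002 on that scale it is just inside the fold of 2, and Derl3 at 0.998 and Dnajc3 at -0.968 are just outside. With ribosomal protein genes set equal Ern1 was higher by 0.25 (adjusted p = 0.0204).

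Eif2ak3, the kinase PERK, measured 7.92, 8.23 and 8.30 in bone marrow at 6 months, 9.08, 8.89 and 9.28 at 14 months and 8.30, 8.19 and 8.51 at 18 months. In epididymal adipocytes it measured 7.40, 7.19 and 7.20, then 8.07, 8.11 and 7.92, then 7.80, 7.74 and 7.69. At each age the bone marrow arrays were above the epididymal ones, and the 14-month arrays were the highest in either cell type. The difference over the ages was 0.84 (SE 0.0741, adjusted p = 5.38e-09), and 0.09 (adjusted p = 0.293) with ribosomal protein genes set equal.

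Atf6, a membrane-bound factor that is cut and moves to the nucleus under stress, lay between 8.59 and 9.05 on all 18 arrays. Its bone marrow arrays measured 8.59, 8.70 and 9.04 at 6 months, 9.05, 8.97 and 9.05 at 14 months and 8.93, 8.84 and 8.80 at 18 months, and its epididymal arrays 8.98, 9.03 and 9.03, then 8.85, 8.82 and 8.83, then 8.81, 8.81 and 8.94. The groups overlapped, with a difference of -0.01 (SE 0.0627, adjusted p = 0.868). Its relative Atf6b measured 8.0, 8.42 and 8.36, then 8.44, 8.45 and 8.63, then 8.17, 8.24 and 8.30 in bone marrow, and 8.30, 8.24 and 8.30, then 8.21, 8.22 and 8.17, then 8.19, 8.26 and 8.06 in epididymal adipocytes. Here too the cell types overlapped, at 0.12 (SE 0.0650, adjusted p = 0.137), a value that passed at 0.18 with median centring, at 0.15 with array weights and at 0.16 without the first array of 6-month bone marrow, and turned to -0.63 with ribosomal protein genes set equal. Atf6 was at -0.76 under that scaling.

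The transcription factors went different ways: Atf4 and Ddit3 were higher in bone marrow and Xbp1 was lower. Atf4 measured 9.37, 10.09 and 9.85 in bone marrow at 6 months, 9.66, 9.51 and 9.73 at 14 months and 9.61, 9.76 and 9.79 at 18 months. In epididymal adipocytes it measured 9.34, 9.28 and 9.34, then 8.51, 8.53 and 8.77, then 8.75, 8.78 and 8.82. The gap was narrow at 6 months and wide at 14 and 18 months. Over the ages it was 0.81 (SE 0.0821, adjusted p = 4.37e-08) and, with ribosomal protein genes set equal, 0.06 (adjusted p = 0.547).

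Ddit3 encodes CHOP, a factor that ATF4 induces and that promotes cell death under lasting stress. It measured 8.18, 8.31 and 7.85 in bone marrow at 6 months, 7.91, 8.69 and 8.60 at 14 months and 6.70, 7.30 and 7.05 at 18 months, and 7.47, 7.24 and 7.53, then 6.56, 6.50 and 6.74, then 7.23, 7.25 and 7.11 in epididymal adipocytes. The cell types were apart at 6 and 14 months and overlapped at 18 months. Over the ages the difference was 0.78 (SE 0.107, adjusted p = 2.91e-06), or 0.03 (adjusted p = 0.833) with ribosomal protein genes set equal. By age it was 0.70 at 6 months, 1.80 at 14 months and -0.18 at 18 months, the last not passing (adjusted p = 0.501).

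Xbp1, whose unspliced and spliced forms the array does not separate, measured 10.52, 9.45 and 9.82 in bone marrow at 6 months, 10.50, 10.36 and 10.23 at 14 months and 9.71, 9.67 and 9.62 at 18 months. The 9 epididymal arrays stayed between 10.20 and 10.50, with 10.29, 10.50 and 10.46, then 10.42, 10.44 and 10.36, then 10.39, 10.31 and 10.20. The first 6-month bone marrow array was above the epididymal range and the 18-month ones were below it. Bone marrow was lower by -0.39 (SE 0.103, adjusted p = 0.00282), and at -1.14 with ribosomal protein genes set equal.

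**Figure D3:**
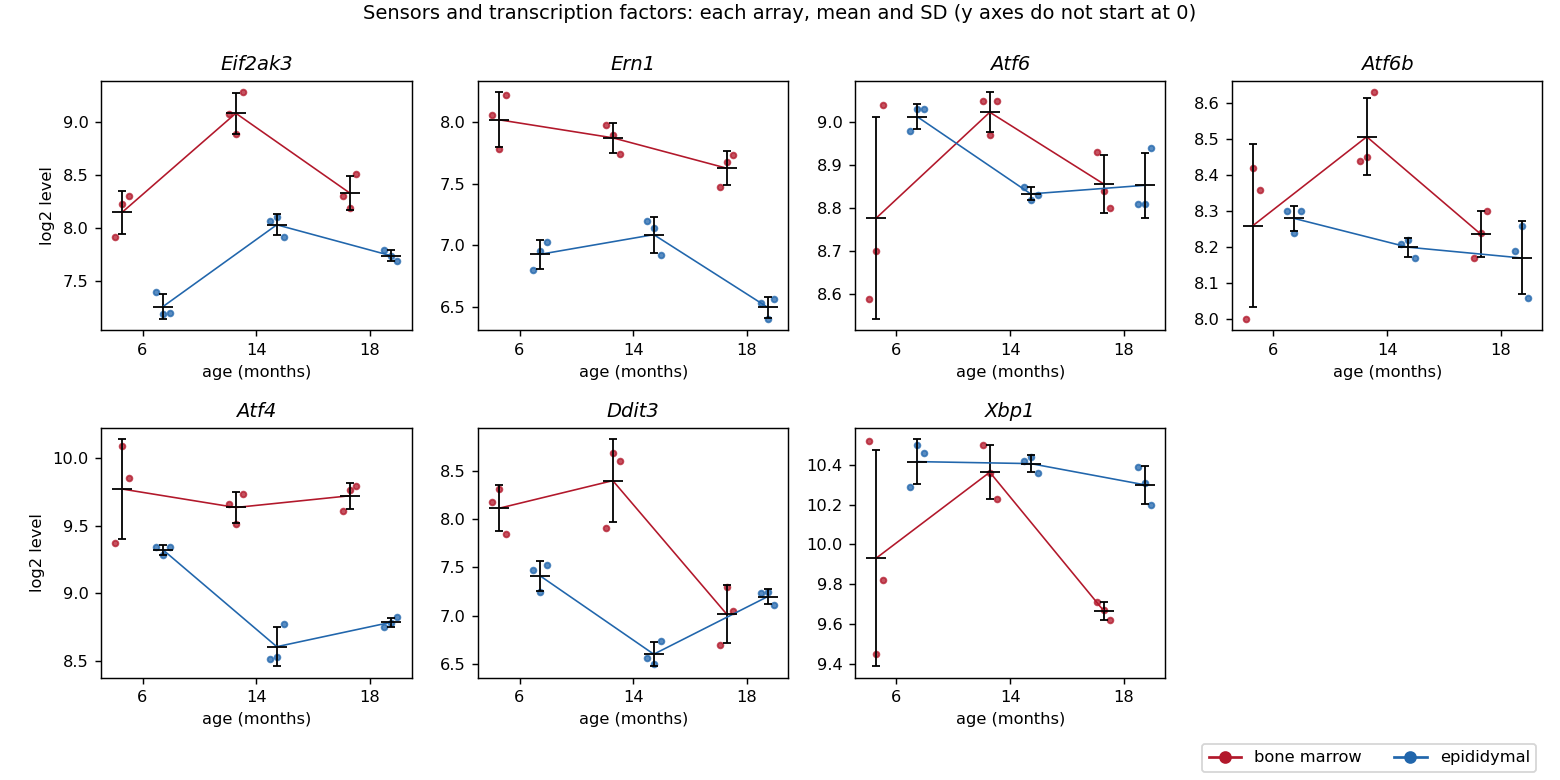
Log2 level (vertical axis, not starting at 0) of the 4 sensors and 3 transcription factors on each array by age in months, with bone marrow left of epididymal at each age; black bars are the mean and SD of 3 arrays and lines join the means. Eif2ak3 peaks at 14 months in both cell types, whereas Ddit3 falls to 7.02 at 18 months in bone marrow, close to the epididymal 7.20.

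Of the 11 chaperones and cofactors, 6 were higher in bone marrow, 2 were lower and 3 did not pass. Sdf2l1, a cofactor of the ER chaperone BiP, measured 8.74, 8.67 and 8.96 in bone marrow at 6 months, 9.01, 8.72 and 8.79 at 14 months and 8.70, 8.64 and 8.79 at 18 months. Its epididymal arrays measured 7.26, 7.17 and 6.88, then 8.45, 8.27 and 7.91, then 7.34, 7.47 and 7.38. Bone marrow was higher on every array, by 1.21 (SE 0.0807, adjusted p = 7.93e-11) and by 0.46 with ribosomal protein genes set equal, and the epididymal level came closest at 14 months.

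Creld2, an ER protein with isomerase activity, measured 8.92, 8.09 and 8.51, then 9.07, 8.91 and 8.83, then 8.33, 8.29 and 8.19 in bone marrow, and 7.50, 7.35 and 7.41, then 8.35, 8.09 and 7.93, then 7.34, 7.37 and 7.26 in epididymal adipocytes. Bone marrow was higher at each age without overlap within an age, by 0.95 over the ages (SE 0.0911, adjusted p = 1.95e-08; 0.20 and adjusted p = 0.0884 with ribosomal protein genes set equal). Manf, a secreted ER stress factor, was at 0.62 (adjusted p = 2.79e-06), and at -0.13 under that scaling. The BiP cochaperones Dnajb9 and Dnajb11 were at 0.34 and 0.29 and the lectin chaperone Calr at 0.28, and these turned to -0.41, -0.46 and -0.47 under it.

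Hspa5, which encodes BiP and is a standard readout of the response, was lower in bone marrow by -0.25 (SE 0.0554, adjusted p = 5.41e-04; -1.0 with ribosomal protein genes set equal), with 11.55 to 11.79 on the bone marrow arrays and 11.68 to 12.09 on the epididymal ones. Dnajc3, a BiP cochaperone that also restrains PERK in the cytosol, was lower by -0.97 (SE 0.0998, adjusted p = 5.41e-08; -1.72 under that scaling), and each of its bone marrow arrays was below each epididymal array. The array carries its probe set in duplicate with identical values, which count as 1 measurement. The ER chaperones Hsp90b1 (-0.06, adjusted p = 0.583), Hyou1 (0.22, adjusted p = 0.0690) and Canx (0.03, adjusted p = 0.808) did not pass. They passed as lower, at -0.81, -0.53 and -0.72, with ribosomal protein genes set equal, while Hyou1 passed as higher with repeated quantile normalization (0.26), median centring (0.29), or without the second array of 6-month or the first of 18-month bone marrow (0.28 each).

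All 3 disulfide isomerases, which form and shuffle disulfide bonds, were lower in bone marrow. Pdia4 was at -0.64 (SE 0.0740, adjusted p = 2.69e-07), Pdia6 at -0.58 (adjusted p = 4.85e-05) and Pdia3 at -0.30 (adjusted p = 0.0245). Under the ribosomal scaling these values were -1.39, -1.33 and -1.05. Pdia3 no longer passed in the repeated quantile normalization (-0.27), with median centring (-0.23), in an ordinary analysis of variance, or without 1 of 3 bone marrow arrays, the second of 6 or 14 months (-0.27 each) or the first of 18 months (-0.24). A second Pdia4 probe set with a mean of 5.26 gave 0.09 (adjusted p = 0.394) over the ages and 0.40, -0.64 and 0.51 at 6, 14 and 18 months, so the probe sets of that gene disagree.

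Genes of ER-associated degradation split, with 3 higher, 4 lower and 1 that did not pass. Herpud1, a scaffold of the degradation complex, measured 10.35, 10.25 and 10.15 in bone marrow at 6 months, 11.22, 11.19 and 11.39 at 14 months and 10.58, 10.56 and 10.70 at 18 months. Epididymal arrays measured 8.99, 8.98 and 8.86, then 9.51, 9.75 and 9.38, then 9.02, 8.95 and 8.79. No array of one cell type came near the other, and bone marrow was higher by 1.57, a fold of 2.97 (SE 0.0657, adjusted p = 6.06e-14; 0.82 with ribosomal protein genes set equal).

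Sel1l, the adaptor that links the ligase Syvn1 to its substrates, measured 8.65, 8.55 and 8.87, then 9.48, 9.33 and 9.11, then 8.81, 8.90 and 8.93 in bone marrow. Its epididymal arrays measured 10.00, 10.15 and 10.06, then 10.32, 10.26 and 10.39, then 10.23, 10.16 and 10.11. All bone marrow arrays were lower, by -1.23, a fold of 2.34 (SE 0.0652, adjusted p = 2.46e-12), and by -1.98 with ribosomal protein genes set equal.

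The derlins, channel proteins of the export step, differed among themselves. Derl1 and Derl2 were lower in bone marrow by -0.79 (adjusted p = 1.80e-07) and -0.75 (adjusted p = 9.77e-07), or -1.54 and -1.50 with ribosomal protein genes set equal, and Derl3, known for its high level in secretory cells, was higher by 1.00 (SE 0.113, adjusted p = 2.09e-07; 0.25 and adjusted p = 0.0575 with ribosomal protein genes set equal). Derl3 measured 7.03, 6.39 and 5.96 in bone marrow at 6 months, 7.70, 7.97 and 7.86 at 14 months and 6.96, 6.67 and 6.76 at 18 months, and 6.05, 6.05 and 5.98, then 6.67, 6.65 and 6.15, then 5.66, 5.65 and 5.45 in epididymal adipocytes. The 6-month bone marrow arrays spread over more than a log2 unit and overlapped the epididymal ones, and those of 14 months were the highest. The mannosidase-like Edem1 was lower (-0.28, adjusted p = 0.0293; -1.03 with ribosomal protein genes set equal) and Edem2 higher (0.16, adjusted p = 0.0450, and -0.59 with ribosomal protein genes set equal). Neither call was firm: leaving out an array ended that of Edem1 in 5 of 18 fits (-0.37 to -0.19) and that of Edem2 in 12 of 18 (0.13 to 0.18). Syvn1 did not pass (0.09, adjusted p = 0.255; -0.66 with ribosomal protein genes set equal).

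The largest difference of all members was that of Slc7a11, the cystine and glutamate exchanger xCT, whose gene ATF4 and NRF2 are known to induce. In bone marrow it measured 9.79, 9.59 and 9.95 at 6 months, 9.04, 8.93 and 9.66 at 14 months and 9.14, 8.92 and 9.20 at 18 months. In epididymal adipocytes it measured 5.59, 5.56 and 5.45, then 4.29, 4.11 and 4.35, then 4.35, 3.78 and 3.80. The difference of 4.77 is a fold of 27.3 (SE 0.103, adjusted p = 4.02e-18), and it was 4.02 with ribosomal protein genes set equal. The epididymal values at 14 and 18 months lay below the array medians of 5.33 to 5.65 and those at 6 months within their range, so the size of the fold rests on low values.

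Ppp1r15a (GADD34) and Ppp1r15b (CReP) direct a phosphatase to eIF2 and so end the stress signal, the first when induced and the second constitutively. Ppp1r15a measured 9.81, 10.26 and 9.50 in bone marrow at 6 months, 9.99, 10.00 and 10.14 at 14 months and 9.58, 9.93 and 9.89 at 18 months. Its epididymal arrays measured 8.51, 8.52 and 8.32, then 6.28, 6.34 and 6.53, then 7.65, 7.61 and 7.74. Bone marrow was higher throughout, by 2.40 or 5.29-fold (SE 0.0881, adjusted p = 8.77e-15; 1.65 with ribosomal protein genes set equal).

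Ppp1r15b measured 9.08, 9.05 and 9.22, then 9.16, 8.88 and 8.95, then 8.98, 9.03 and 9.16 in bone marrow, and 8.91, 9.28 and 9.31, then 7.94, 7.99 and 8.16, then 8.13, 7.93 and 8.04 in epididymal adipocytes. The cell types overlapped at 6 months and were apart at 14 and 18 months, with 0.65 over the ages (SE 0.0704, adjusted p = 1.19e-07; -0.10 with ribosomal protein genes set equal). A second, dimmer probe set of this gene gave 0.58 over the ages (adjusted p = 3.93e-04). At 6 months it gave 0.63 (adjusted p = 0.0201) where the brighter one was at -0.05, so the probe sets disagree at that age.

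Other ATF4 targets did not follow Slc7a11. Asns, the asparagine synthetase, and Sesn2, a stress-induced inhibitor of mTORC1, were lower in bone marrow by -0.45 (adjusted p = 9.33e-04) and -0.46 (adjusted p = 3.39e-05), or -1.20 and -1.21 under the ribosomal scaling. The pseudokinase Trib3 (0.05, adjusted p = 0.565) and the glutathione-degrading Chac1 (0.03, adjusted p = 0.800) did not pass, and were at -0.70 and -0.72 with ribosomal protein genes set equal. Chac1 passed in opposite directions at different ages, at 0.95 at 14 months (adjusted p = 6.04e-05) and -0.47 at 18 months (adjusted p = 0.0205).

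At the single ages, 8 members differed by at least 2-fold at 6 months (6 higher and 2 lower), 9 at 14 months (8 and 1) and 9 at 18 months (7 and 2). Of all probe sets 23.1% passed at 6 months (11.4% higher and 11.8% lower), 21.4% at 14 months (9.91% and 11.5%) and 23.8% at 18 months (10.9% and 12.9%). Of those with a group mean of at least 6, 38.7%, 35.1% and 39.2% passed at these ages. Across the 3 ages, 9 members passed by adjusted p as higher each time (Atf4, Creld2, Eif2ak3, Ern1, Herpud1, Manf, Ppp1r15a, Sdf2l1 and Slc7a11) and 5 as lower each time (Derl1, Derl2, Dnajc3, Pdia4 and Sel1l). The share of all probe sets that passed the same way at all 3 ages was not counted, so these names carry no comparison. By adjusted p 21 members passed at 6 months (46.3% of all probe sets, 22.0% higher and 24.3% lower), 24 at 14 months (45.8%, with 21.6% and 24.2%) and 20 at 18 months (47.1%, with 21.6% and 25.5%). These are 58.3%, 66.7% and 55.6% of the members. Of probe sets with a group mean of at least 6, 70.0%, 67.8% and 71.6% passed by that rule. At 14 months Ppp1r15a was at 3.66 and Ddit3, Derl3 and Dnajb9 at 1.80, 1.35 and 1.10. At 18 months Sesn2 reached -1.06 (adjusted p = 1.64e-06). With ribosomal protein genes set equal, the medians of all probe sets at 6, 14 and 18 months moved by -0.93, -0.60 and -0.73, and the 2-fold counts became 1 higher and 16 lower at 6 months, 4 and 8 at 14 months, and 2 and 10 at 18 months. Without replicate 1 of 6-month epididymal adipocytes 6 were higher and 2 lower at 6 months.

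With age in bone marrow, 14 months stood out against both 6 and 18 months. At 14 against 6 months 7 members rose (Derl3, Herpud1, Eif2ak3, Chac1, Sel1l, Edem2 and Syvn1) and 1 fell (Calr). These 8 are 22.2% of the members, against 8.66% of all probe sets (5.08% higher and 3.58% lower) and 13.6% of those with a group mean of at least 6 passed. Setting ribosomal protein genes equal left 6 that rose and none that fell. The median change of the members was 0.25, against -0.02 for all probe sets. Of the 8 genes of ER-associated degradation 5 rose, and of the 11 chaperones and cofactors none passed as higher. Derl3 rose by 1.39 (SE 0.196, adjusted p = 2.59e-04), Herpud1 by 1.02 (SE 0.114, adjusted p = 3.11e-05) and Eif2ak3 by 0.94 (SE 0.128, adjusted p = 2.00e-04). The 14-month arrays did not overlap with the 6-month ones for 9 members that were higher and 1 that was lower, where 19.9% of all probe sets did not overlap. Derl3, Herpud1 and Eif2ak3 are among the 9, and they are the 3 that also passed in a fit of the compared groups alone.

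The smaller rises were those of Chac1 (0.63, adjusted p = 0.0203), Sel1l (0.62, adjusted p = 0.00200), Edem2 (0.45, adjusted p = 0.0166) and Syvn1 (0.40, adjusted p = 0.0369). Chac1 no longer passed without the second array of 6 months (0.58) or of 14 months (0.45), Edem2 without replicate 1 (0.40) or 3 (0.44) of 14 months, and Syvn1 in 7 of 18 such fits (0.35 to 0.47). Calr, the lectin chaperone calreticulin, measured 11.45, 10.92 and 11.02 in bone marrow at 6 months, 10.75, 10.65 and 10.57 at 14 months and 10.46, 10.61 and 10.67 at 18 months. The epididymal arrays measured 10.53, 10.59 and 10.54, then 10.53, 10.51 and 10.43, then 10.55, 10.55 and 10.36. Its fall at 14 months was -0.47 (SE 0.123, adjusted p = 0.0212), with the first 6-month array the highest of all, and -0.31 (adjusted p = 0.0871) without that array. It also no longer passed without replicate 2 (-0.47) or 3 (-0.43) of 14 months.

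Plasma cell and B lineage markers moved with these rises. The mean log2 level of 8 plasma cell markers on the bone marrow arrays was 6.84 to 7.21 at 6 months, 7.93 to 8.02 at 14 months and 7.09 to 7.39 at 18 months, and that of 10 B lineage markers was 7.65 to 8.06, 8.70 to 9.07 and 7.51 to 7.90. At 14 against 6 months 5 of the 8 and 7 of the 10 markers rose. Other lists moved too: 4 of 11 macrophage markers and 2 of 13 immediate early genes rose. Endothelial (5 of 9), fibroblast (3 of 9), platelet (1 of 7) and mature adipocyte (1 of 11) markers fell. The part of all these lists in the changes of Derl3, Herpud1 and the other members was not tested.

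At 18 against 6 months 3 members fell in bone marrow, Ddit3, Slc7a11 and Calr. These are 8.33% of the members, against 8.50% of all probe sets (3.37% higher and 5.13% lower) and 13.8% of those with a group mean of at least 6. Under the ribosomal scaling 1 rose and 1 fell. Ddit3 was at -1.10 (SE 0.186, adjusted p = 0.00199), with all 18-month arrays below all 6-month arrays. The groups did not overlap for 2 members that were higher and 7 that were lower, where 20.2% of all probe sets did not overlap. Slc7a11 was at -0.69 (SE 0.178, adjusted p = 0.0224) and Calr at -0.55 (SE 0.123, adjusted p = 0.0110). No member rose by limma's adjusted p, while 3 were higher at an unadjusted p under 0.05 (Herpud1, Derl2 and Asns) and 1 rose by the adjusted p of an ordinary analysis of variance. In a fit of these groups alone no member passed in either direction by limma, with 2 higher and 7 lower at an unadjusted p under 0.05. The call of Slc7a11 was also lost without the first (-0.71) or second (-0.60) array of 18 months, and that of Calr without the first (-0.49).

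Against 14 months, bone marrow of 18 months had 13 members that fell and 1 that rose, 38.9% of the members against 13.0% of all probe sets (4.75% higher and 8.23% lower) and 20.7% of those with a group mean of at least 6. All 7 members that had risen at 14 months were among those that fell. Ddit3 fell by 1.39 (adjusted p = 8.35e-05), Chac1 and Derl3 by 1.05 each (adjusted p = 2.97e-04 and 0.00141), Eif2ak3 by 0.75, Edem1 by 0.70, Sesn2 and Xbp1 by 0.69, Creld2 by 0.66, Herpud1 by 0.65, Edem2 by 0.64, Dnajb9 by 0.63, and Sel1l and Syvn1 by 0.43. Asns rose by 0.90 (adjusted p = 0.00248). The groups did not overlap for 20 members that were lower and 1 that was higher, where 31.7% of all probe sets did not overlap. All 14 calls also passed in a fit of these groups alone, and with ribosomal protein genes set equal Creld2 (-0.58), Edem1 (-0.62), Sel1l (-0.35), Syvn1 (-0.35) and Xbp1 (-0.61) no longer did. Without the first 14-month array Xbp1 (-0.62), Edem1 (-0.64) and Sel1l (-0.34) no longer passed. Sel1l also failed without the second 14-month (-0.42) or the first 18-month array (-0.39), Edem1 without the first 18-month array (-0.59), and Syvn1 in 4 of 18 such fits (-0.49 to -0.39 over all 18). The 14-month arrays enter this comparison and the one against 6 months, so the rise and the fall are not independent. Markers moved with these falls: all 10 B lineage and 4 of 8 plasma cell markers fell and 3 of 7 erythroid markers rose. Of the immediate early genes, which respond to stimulation and handling, 8 of 13 fell, with a mean level over the list of 9.03 to 9.29 at 18 months and 10.15 to 10.35 at 14 months. Their part was not tested.

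**Figure D4:**
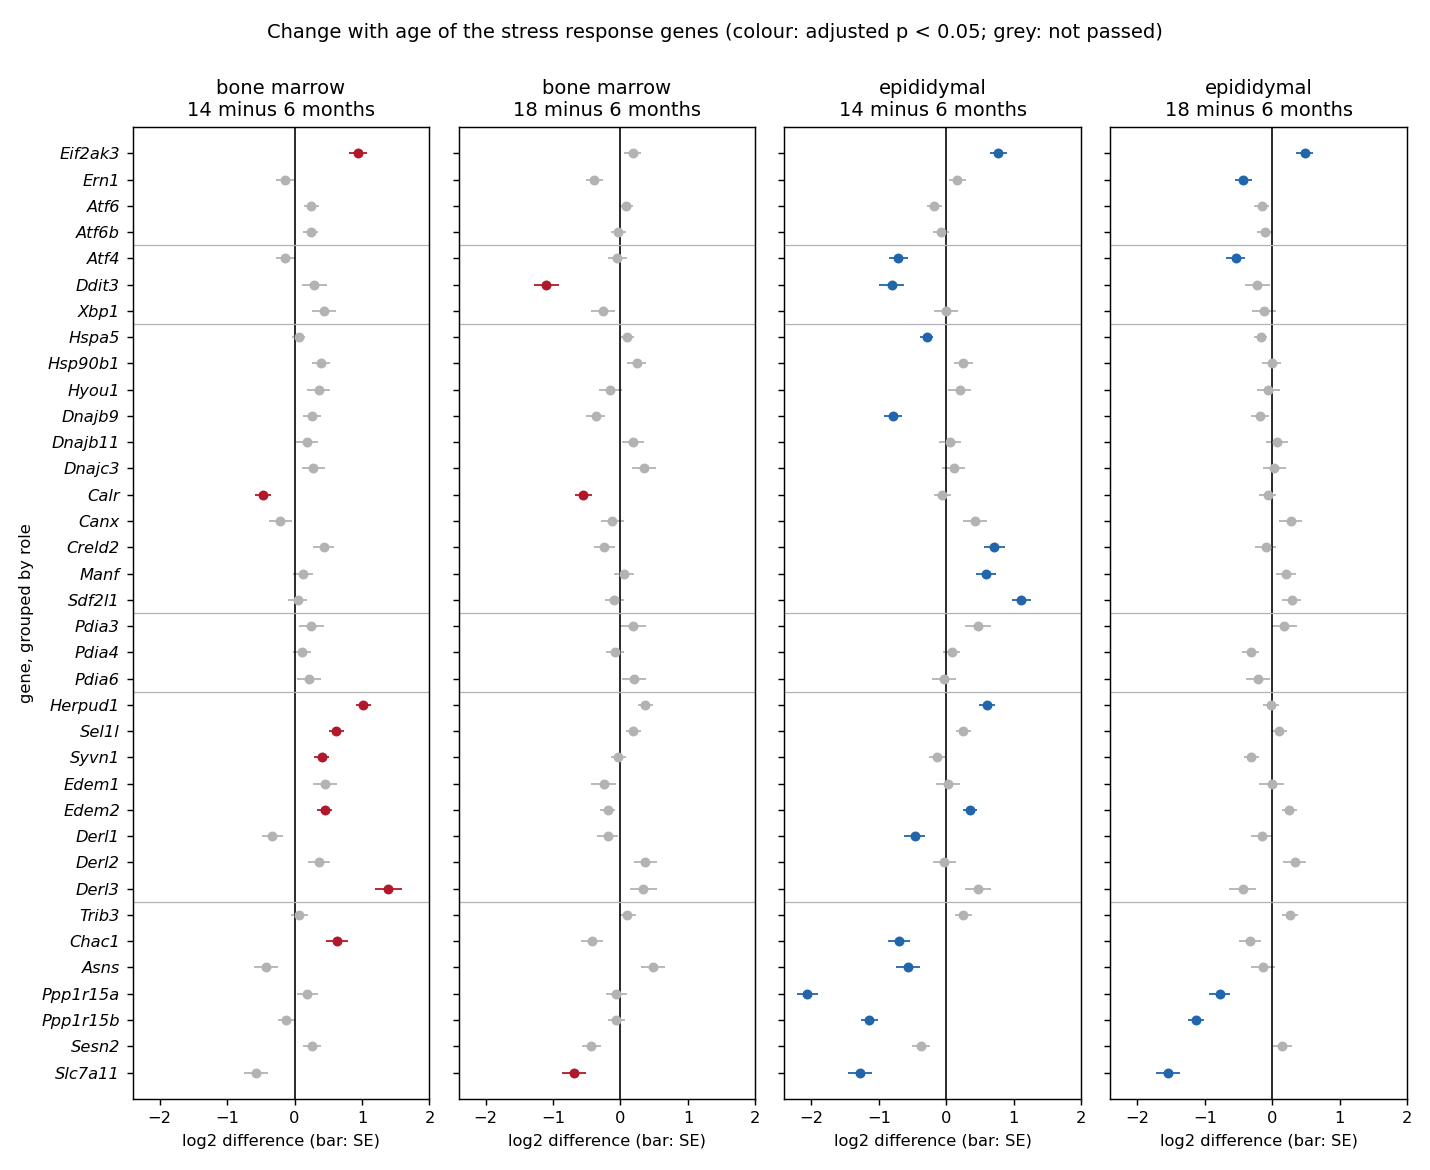
Log2 change of each of the 36 genes at 14 and 18 months against 6 months in bone marrow (left panels) and epididymal adipocytes (right panels); points are differences, bars the standard error, color an adjusted p under 0.05 and gray a change that did not pass. Bone marrow at 14 months has 7 colored points on the right and 1 on the left, epididymal adipocytes at 14 months have 6 and 10.

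In epididymal adipocytes at 14 against 6 months, 6 members rose and 10 fell. Atf4, Ddit3 and 5 of the 7 ATF4 targets and feedback genes fell, and none of those 7 rose. Of the 11 chaperones and cofactors 3 rose (Sdf2l1, Creld2 and Manf) and 2 fell (Dnajb9 and Hspa5), of the 8 degradation genes 2 rose (Herpud1 and Edem2) and 1 fell (Derl1), and the sensor Eif2ak3 rose. The 16 are 44.4% of the members, against 17.7% of all probe sets (10.2% higher and 7.51% lower) and 26.0% of those with a group mean of at least 6. Sdf2l1 rose by 1.11 (SE 0.140, adjusted p = 1.24e-05), Eif2ak3 by 0.77 (SE 0.128, adjusted p = 2.56e-04) and Creld2 by 0.71 (SE 0.158, adjusted p = 0.00356), each with all 14-month arrays above all 6-month arrays. The groups did not overlap for 13 members that were higher and 13 that were lower, where 35.9% of all probe sets did not overlap. Herpud1 (0.60), Manf (0.58) and Edem2 (0.35) rose less. With ribosomal protein genes set equal, which shifted the median over all probe sets by -0.27 here, Creld2 (0.43), Herpud1 (0.33), Manf (0.31) and Edem2 (0.08) no longer passed. Manf was also lost without replicate 3 of 6 months (0.48), and Edem2 without any of the 6-month arrays or the first of 14 months (0.26 to 0.39 over all 18 such fits). Under the ribosomal scaling 2 members rose and 14 fell. Without replicate 1 of 6-month epididymal adipocytes 5 rose and 7 fell, and Edem2, Asns, Derl1 and Hspa5 no longer passed.

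The largest fall was that of Ppp1r15a, -2.06 or 4.18-fold (SE 0.153, adjusted p = 1.63e-08), followed by Slc7a11 at -1.28 (SE 0.178, adjusted p = 3.68e-05) and Ppp1r15b at -1.14 (SE 0.122, adjusted p = 1.68e-06). The 14-month values of Slc7a11, 4.11 to 4.35, lay below the array medians of 5.33 to 5.65, and its 6-month values of 5.45 to 5.59 lay within their range. Ddit3 (-0.81), Dnajb9 (-0.79), Atf4 (-0.71), Chac1 (-0.70), Asns (-0.57), Derl1 (-0.47) and Hspa5 (-0.29) fell as well. The dimmer probe set of Ppp1r15b had -0.47 (adjusted p = 0.155) and did not pass. The last 3 calls were weak: leaving out an array ended that of Hspa5 in 14 of 18 fits (-0.31 to -0.25), that of Derl1 in 11 (-0.51 to -0.44) and that of Asns in 5 (-0.74 to -0.36). A dim second probe set of Pdia4 rose at this age by 1.29 (adjusted p = 2.68e-06) where the brighter one did not pass (0.08).

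Other genes moved at the same age. Of 13 immediate early genes 12 fell, and their mean level on the epididymal arrays was 10.36 to 10.40 at 6 months, 7.33 to 8.03 at 14 months and 8.71 to 8.76 at 18 months. That list includes Atf3, an ATF4-induced factor of the same response, at -2.85 (adjusted p = 3.85e-08). Macrophage markers rose (9 of 11, with a mean level of 7.59 to 7.93, 9.31 to 9.81 and 6.3 to 6.44 at 6, 14 and 18 months), as did 8 of 9 fibroblast and 5 of 9 endothelial markers. Plasma cell markers were at 5.54 to 5.84, 6.27 to 7.03 and 5.19 to 5.32. At 14 against 6 months 6 of 10 B lineage markers rose, and 3 of 11 neutrophil and 3 of 7 erythroid markers fell. What part these have in the changes of the members was not tested, and age and the handling of an age group cannot be told apart.

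At 18 against 6 months 5 members fell and 1 rose in epididymal adipocytes. These are 16.7% of the members, against 16.2% of all probe sets (8.22% higher and 8.01% lower) and 23.7% of those with a group mean of at least 6. Slc7a11 fell by 1.55 (SE 0.178, adjusted p = 8.37e-06), Ppp1r15b by 1.13 (SE 0.122, adjusted p = 4.11e-06) and Ppp1r15a by 0.78 (SE 0.153, adjusted p = 0.00172), in each case with all 18-month arrays below all 6-month arrays. The groups did not overlap for 6 members that were higher and 14 that were lower, where 41.7% of all probe sets did not overlap. The 18-month values of Slc7a11, 3.78 to 4.35, lay below the array medians of 5.33 to 5.65, and its 6-month values of 5.45 to 5.59 lay within their range. The dimmer probe set of Ppp1r15b had -0.47 (adjusted p = 0.152) and did not pass. Atf4 (-0.54, adjusted p = 0.0141) and Ern1 (-0.43, adjusted p = 0.0283) fell too, and Eif2ak3 rose by 0.48 (SE 0.128, adjusted p = 0.0158). Atf4 was lost without the first 18-month array (-0.52). Eif2ak3 was lost without replicate 2 (0.44) or 3 (0.45) of 6 months or replicate 1 of 18 months (0.45). Ern1 was lost in 4 of 18 such fits (-0.49 to -0.38), and also with repeated quantile normalization (-0.34) or median centring (-0.36). All 6 passed in a fit of the compared groups alone, while Eif2ak3 (0.42) and Ern1 (-0.49) did not with ribosomal protein genes set equal, which left 4 that fell and none that rose. Without replicate 1 of 6-month epididymal adipocytes 5 fell and 1 rose. In this comparison 8 of 11 macrophage, 9 of 13 immediate early and 7 of 9 endothelial markers fell, and their part was not tested.

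Against 14 months, the 18-month epididymal arrays had 4 members that rose and 6 that fell. These are 27.8% of the members, against 24.1% of all probe sets (11.7% higher and 12.5% lower) and 35.4% of those with a group mean of at least 6. Ppp1r15a rose by 1.28 (adjusted p = 4.19e-06), Dnajb9 by 0.61, Ddit3 by 0.60 and Sesn2 by 0.53, while Derl3 fell by 0.91, Sdf2l1 by 0.81, Creld2 by 0.80, Herpud1 by 0.63, Ern1 by 0.59 and Pdia4 by 0.40. With ribosomal protein genes set equal Ern1 (-0.38) and Pdia4 (-0.19) no longer passed, and 7 members rose and 4 fell. Ddit3 (0.55 to 0.67) was lost in 4 of 18 fits without an array and Pdia4 (-0.44 to -0.37) in 5. Of the members that had fallen at 14 months, Ppp1r15a, Ddit3 and Dnajb9 rose again, and of those that had risen, Sdf2l1, Creld2 and Herpud1 fell again. The 14-month arrays enter both comparisons, so a change at 14 months and its return are not independent. Macrophage (10 of 11), endothelial (9 of 9), plasma cell (7 of 8), fibroblast (7 of 9) and B lineage (5 of 10) markers fell in this comparison. Of 13 immediate early genes 7 rose. Of 11 neutrophil markers 5 rose and 1 fell, with a mean level of 6.52 to 7.09 at 18 months and 5.32 to 5.59 at 14 months. The part of these lists was not tested.

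Set side by side, 3 members rose at 14 against 6 months in both cell types: Eif2ak3 (0.94 in bone marrow and 0.77 in epididymal adipocytes), Herpud1 (1.02 and 0.60) and Edem2 (0.45 and 0.35). Chac1 rose in bone marrow (0.63) and fell in epididymal adipocytes (-0.70). At 18 against 6 months Slc7a11 fell in both (-0.69 and -1.55). By the F test over both older ages 16 members changed in bone marrow (44.4%, against 18.5% of all probe sets), 17 in epididymal adipocytes (47.2%, against 31.0%), 10 in both and 13 in neither. Of probe sets with a group mean of at least 6, 29.5% changed by that test in bone marrow and 45.0% in epididymal adipocytes. The shares of all probe sets that moved in both cell types or in neither were not counted, so the joint counts carry no comparison.

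The age change itself was compared between the cell types by the interaction terms of the model. At 14 against 6 months it differed for 9 members, 25.0% against 11.6% of all probe sets (5.07% higher and 6.53% lower) and 17.5% of those with a group mean of at least 6. In 8 the change in bone marrow exceeded that in epididymal adipocytes. Without replicate 1 of 6-month epididymal adipocytes the count was 7, with Derl3 and Sesn2 lost. Ppp1r15a differed most, by 2.25 (SE 0.216, adjusted p = 1.10e-06), since it changed by 0.19 in bone marrow, which did not pass, and by -2.06 in epididymal adipocytes. Chac1 differed by 1.33 (SE 0.229, adjusted p = 5.79e-04). It measured 7.35, 7.06 and 7.04, then 7.52, 8.13 and 7.67, then 6.58, 6.76 and 6.85 in bone marrow at 6, 14 and 18 months, and 7.47, 7.45 and 7.66, then 6.47, 7.04 and 6.96, then 7.12, 7.22 and 7.27 in epididymal adipocytes. All 3 bone marrow arrays were below the epididymal ones at 6 and 18 months and above them at 14 months.

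Ddit3 differed by 1.10 (SE 0.262, adjusted p = 0.00855), Dnajb9 by 1.05 (adjusted p = 8.97e-04) and Ppp1r15b by 1.02 (adjusted p = 4.86e-04). The mean of the Ppp1r15b probe sets gave 0.49 (adjusted p = 0.138) and the dimmer one alone -0.03 (adjusted p = 0.968), so that call rests on the brighter one. Derl3 (0.92, adjusted p = 0.0372), Sesn2 (0.64, adjusted p = 0.0354) and Syvn1 (0.54, adjusted p = 0.0371) were near the threshold, and each was lost in 8 of 18 fits without an array (0.67 to 1.20, 0.53 to 0.76 and 0.46 to 0.68). Sdf2l1 went the other way at -1.06 (SE 0.198, adjusted p = 0.00128), with a change of 0.05 in bone marrow, against 1.11 in epididymal adipocytes.

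At 18 against 6 months the age change differed for 4 members. These are 11.1% of the members, against 8.51% of all probe sets (3.49% higher and 5.02% lower) and 13.1% of those with a group mean of at least 6. Ppp1r15b was at 1.07 (SE 0.172, adjusted p = 8.11e-04; 0.48 and adjusted p = 0.169 with the mean of its probe sets), Slc7a11 at 0.87 (SE 0.251, adjusted p = 0.0390) and Ppp1r15a at 0.72 (SE 0.216, adjusted p = 0.0450), and Ddit3 at -0.88 (SE 0.262, adjusted p = 0.0440). The last 3 were close to the threshold, and the epididymal Slc7a11 values lay below all array medians at 18 months and within their range at 6 months. Without replicate 1 of 6-month epididymal adipocytes all 3 were lost, and under the ribosomal scaling 3 members passed with a positive term and none with a negative one. Without single arrays Slc7a11 was lost in 8 of 18 fits (0.77 to 1.05), Ppp1r15a in 15 (0.54 to 0.92) and Ddit3 in 13 (-1.02 to -0.72).

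**Figure D5:**
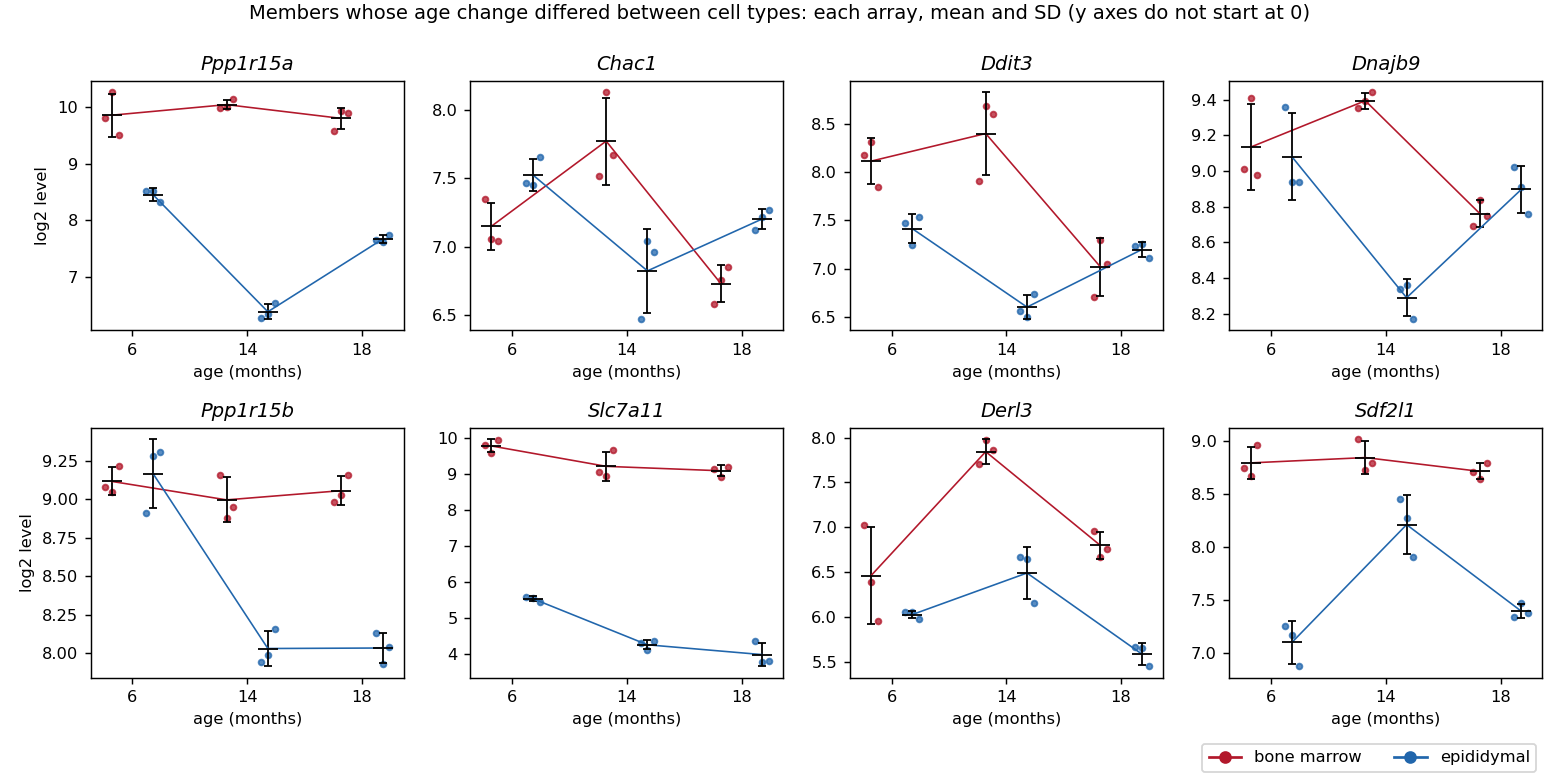
Log2 level (vertical axis, not starting at 0) by age in months on each array for 8 members whose age change differed between the cell types, bone marrow left of epididymal; black bars are the mean and SD of 3 arrays and lines join the means. Ppp1r15a drops to 6.38 in epididymal adipocytes at 14 months and stays near 10 in bone marrow, where its 14-month mean is 10.05.

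Of 100 further genes of these pathways, 27 were higher and 55 lower in bone marrow over the ages by adjusted p (14 and 19 at 2-fold or more), with a median of -0.28. Of all probe sets 58.1% passed by adjusted p (26.9% higher and 31.2% lower) and 21.8% at 2-fold. Of those with a group mean of at least 6, 81.8% passed by adjusted p and 36.5% at 2-fold. With ribosomal protein genes set equal 3 of the 100 were higher and 52 lower at 2-fold. The largest differences were among other ATF4 targets, where 7 of 19 were higher and 10 lower: Vldlr, a lipoprotein receptor, was at -5.22, the alanine transaminase Gpt2 at -4.44, Cth, which makes cysteine, at -3.31 and Phgdh, the first enzyme of serine synthesis, at -3.04. Of 9 genes for other eIF2 kinases, eIF2 and eIF2B, Eif2ak1, the heme-regulated kinase of red cell precursors, was at 1.75 and the eIF2B subunit Eif2b3 at -1.61. Among 12 other stress factors 3 were higher and 8 lower, with Nupr1 and Creb3l1 at -1.74 each, Creb3 at -1.66 and Atf5 at -1.46.

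In 12 other ER folding genes 3 were higher and 4 lower, with the oxidases Ero1b and Ero1a at 1.63 and 1.30 and the BiP exchange factor Sil1 at -1.77. In the other lists 4 of 14 genes of ER translocation and retrieval were higher and 8 lower, as were 3 and 12 of 16 other degradation genes, and 2 and 8 of 11 tRNA synthetases. Of 7 genes of stress-induced cell death 4 were higher and 2 lower, with Bcl2l11 at 2.67, Pmaip1 at 2.50 and Casp12 at -2.86.

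With age, 9 of the 100 rose and 6 fell in bone marrow at 14 months, and 7 rose and 7 fell at 18 months, against 8.66% of all probe sets that passed at 14 months and 8.50% at 18 months. Of those with a group mean of at least 6, 13.6% and 13.8% passed. In epididymal adipocytes 12 rose and 9 fell at 14 months, and 12 rose and 8 fell at 18 months, against 17.7% of all probe sets at 14 months and 16.2% at 18 months. Of those with a group mean of at least 6, 26.0% and 23.7% passed. Txndc5 and Ero1b, which help form disulfide bonds, rose in both cell types at 14 months (1.32 and 1.03 in bone marrow, 0.77 each in epididymal adipocytes). Pmaip1, a promoter of apoptosis, rose in bone marrow at 14 months by 2.00. Atf3 fell at 18 months in bone marrow (-1.78) and at both older ages in epididymal fat cells (-2.85 and -2.18). Of 11 tRNA synthetases, 3 rose in bone marrow at 18 months (Yars 0.67, Eprs 0.59 and Iars 0.33).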

How the data were processed

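RNA of 18 arrays was measured. Per the labels and the study's methods, the authors summarized the scans in Partek by gcRMA with quantile normalization, and the deposited log2 values entered the tests without further change; the tools named in the submitters' processing notes are Partek, GCRMA and RMA. Array medians were 5.33 to 5.65, and background was not set, so a low value does not tell whether a gene was expressed. The platform annotation names a gene for 23410 of 35556 probe sets, and these were tested; 1621 name several genes and were not used for single genes.

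A mean per group was fitted over all arrays in limma 3.58.1 (R 4.3.3), with moderated tests and Benjamini-Hochberg adjustment within each contrast. The call between cell types needed a fold of 2 and an adjusted p under 0.05, and that for age an adjusted p under 0.05. The fit was tested on simulated data. Members and lists were chosen with earlier results of these data known, so counts over them are descriptions. All members may be named; arrays are given for sensors, factors and up to 3 members per direction with the largest called difference, and of other pathway genes up to 4 per list.

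Alternatives changed the normalization, scaling, probe sets, test, variance prior, array weights, arrays in the fit, a replicate block and the limits, and left out each array in turn. The sources do not say that arrays of the same number share animals, and such arrays did not deviate together. No pair of arrays held identical values; the number of arrays limits the precision. Promoters came from RefSeq (GRCm38.p6). Motifs were searched in Python 3.11.15.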

Additional observations from a re-analysis of the deposited data

Results flagged for a closer look

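For 9 members the change at 14 against 6 months differed between bone marrow and epididymal adipocytes by the interaction term. The differences (bone marrow minus epididymal) were 2.25 for Ppp1r15a, 1.33 for Chac1, 1.10 for Ddit3, 1.05 for Dnajb9, 1.02 for Ppp1r15b, 0.92 for Derl3, 0.64 for Sesn2, 0.54 for Syvn1 and -1.06 for Sdf2l1. For 4 the change at 18 against 6 months differed: 1.07 for Ppp1r15b, 0.87 for Slc7a11, 0.72 for Ppp1r15a and -0.88 for Ddit3. The terms of Ppp1r15b rest on the brighter of its probe sets. At 14 months 12 of 13 immediate early genes passed with a positive interaction term, as Ppp1r15a did, and 9 of 11 macrophage, 8 of 9 fibroblast and 7 of 9 endothelial markers passed with a negative one, as Sdf2l1 did. Their part in these differences was not tested. Replicate 1 of 6-month epididymal adipocytes, which enters all these terms, had a mean neutrophil marker level of 8.99 against 5.62 and 5.37 on the other arrays of its group; without it 7 members passed at 14 months and 1 at 18 months.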

How the results depend on the processing

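Alternatives changed the counts of members that passed as follows, and the cause was not tested unless fewer arrays or a stricter limit is the change itself. By adjusted p without the fold of 2, 28 members passed between the cell types over the ages, 21 at 6, 24 at 14 and 20 at 18 months. With a fold of 1.5 added for age, 5 passed in bone marrow at 14 against 6 months and 3 in epididymal adipocytes at 18 against 6 months. With ribosomal protein genes set equal, 14 passed between the cell types over the ages (2 higher, 12 lower), 17 at 6 months (1 and 16), 9 in bone marrow at 18 against 14 months, 17 by the interaction at 14 months and 10 by the F test in bone marrow. Of the other pathway genes 55 then passed between the cell types, at 14 against 6 months 9 in bone marrow and 39 in the epididymal groups, and 12 at 18 against 6 months in epididymal adipocytes. That scaling turned the cell type difference of 12 members negative: Atf6b -0.63, Hyou1 -0.53, Dnajb9 -0.41, Dnajb11 -0.46, Calr -0.47, Canx -0.72, Manf -0.13, Syvn1 -0.66, Edem2 -0.59, Trib3 -0.70, Chac1 -0.72 and Ppp1r15b -0.10. In a fit of the compared groups alone, 3 members passed in bone marrow at 14 against 6 months, 0 at 18 against 6 months (by limma; 2 higher and 7 lower at an unadjusted p under 0.05) and 10 by the F test, and 11 in epididymal adipocytes at 18 against 6 months. At 18 against 6 months array weights gave 1 in bone marrow and 14 in the epididymal groups, and they gave 17 in epididymal adipocytes at 18 against 14 months and 26 by the epididymal F test. Over probe sets with a group mean of at least 6, 6 passed in bone marrow at 18 against 6 months, and median centring gave 15 by the interaction at 14 months. The interaction at 18 months had 2 with repeated quantile normalization, 1 over all probe sets of the table and 1 in an ordinary analysis of variance.

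Leaving out 1 array at a time gave 5 to 14 members in bone marrow at 14 against 6 months, 1 to 8 at 18 against 6 months, 3 to 7 in epididymal adipocytes at 18 against 6 months and 1 to 7 by the interaction at 18 months. The lowest of these counts were without replicate 2 of 14-month bone marrow, without replicate 1 of 18-month bone marrow, without replicate 1 of 18-month epididymal adipocytes and, for the interaction, without any 1 of the 3 epididymal arrays of 6 months, replicate 3 of 18-month bone marrow, or replicate 2 or 3 of 18-month epididymal adipocytes. Without replicate 3 of 6-month bone marrow all 4 counts were at their highest. A replicate block left 6 members between the cell types, 8 by the interaction at 14 months and 3 at 18 months. It ended the calls of Edem2 between the cell types (0.16, adjusted p = 0.0709 by limma), Syvn1 by the interaction at 14 months (0.54, adjusted p = 0.0619) and Ddit3 by that at 18 months (-0.88, adjusted p = 0.0618), and no other. Same-numbered arrays correlated in their deviations at -0.14 to 0.15, over 0.1 in 1 of 9 pairs. The number of arrays limits the precision of each call near the threshold.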
